A study of Mus musculus with 8 samples.

Results

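Histone acetyltransferases add acetyl groups to lysines of histone tails and histone deacetylases take them off, so that the mark H3K27ac, acetylation of lysine 27 on histone H3, depends on both. p300 and CBP are the main enzymes that write H3K27ac at promoters and enhancers. During spermatogenesis this mark changes widely as meiotic cells become haploid, and later in spermatids histones are hyperacetylated and replaced by protamines. The genes described here are 5 acetyltransferase genes, *Ep300*, *Crebbp*, *Kat2a*, *Kat2b* and *Kat5*, and 5 deacetylase genes, *Hdac1*, *Hdac2*, *Hdac3*, *Hdac4* and *Hdac11*. They were taken by name and were all found, 10 of the 23343 genes of the RNA tables, in 12 of 26099 rows, each row holding 1 transcript or a set of transcripts. Their H3K27ac intervals are those annotated to one of these genes or lying within 2 kb of its start site: 21 of 41095 and 32 of 49434 intervals in the 2 replicates from spermatocytes, and 54 of 74919 and 42 of 45863 in the 2 from round spermatids.

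RNA was sequenced from pachytene spermatocytes (PS), cells in meiotic prophase, and from round spermatids (RS), the haploid cells that follow meiosis. Both RNA groups came from adult C57BL/6 testis of the genotype Rnf8- and Scml2-dKO, a double knockout of the ubiquitin ligase gene *Rnf8* and of *Scml2*, a gene of a germline Polycomb protein. H3K27ac ChIP-seq was of PS and RS from adult wild-type C57BL/6 testis. Each of the 4 groups had 2 replicates, the cells were separated by sedimentation, and no RNA of wild-type cells was used here. RNA and H3K27ac values therefore belong to different genotypes, and a difference between PS and RS in RNA is one within dKO cells.

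The RNA samples held 9655405 to 12289694 counts on genes. Both knocked-out genes still had counts: *Rnf8* had 93 and 110 counts in PS and 61 and 50 in RS, and *Scml2* 40 and 92 in PS and 44 and 98 in RS, with no wild-type sample to set them against. All 10 round spermatid markers were detected and summed to 465 and 801 RPKM, reads scaled to transcript length and library size, in PS against 13270 and 14100 in RS. The 10 spermatocyte markers summed to 422 and 312 RPKM in PS and to 170 and 220 in RS, but they did not all differ in this direction. *Dmc1*, at 3.28 and 3.93 RPKM in PS and 9.69 and 9.41 in RS, and *Mei1*, at 4.73 and 4.99 against 5.55 and 5.57, were higher in RS. The groups of *Sycp1* and *Meiob* overlapped, and the others were lower in both RS samples. All 6 markers of Leydig cells, the steroid-making cells between the tubules, were higher in PS, at a sum of 729 and 547 RPKM against 68.3 and 42.6, most of it *Insl3*. The macrophage markers found, 3 of the 4 listed, summed to 2.88 and 1.98 RPKM in PS and to 40.1 and 34.3 in RS. Sertoli markers summed to 5.18 to 12.9 RPKM over the 4 samples, and the hemoglobin genes *Hbb-b1* and *Hba-a1* were listed at 0 in each of them. The part of these other cells in the results below was not tested. Fewer cells of a type and less RNA per cell cannot be told apart in such bulk samples.

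Of the 10 genes, 3 had higher RNA in RS and 3 had lower RNA in RS, and 4 passed neither. *Kat2b*, *Hdac11* and *Hdac4* rose, and *Kat2a*, *Kat5* and *Hdac3* fell. *Ep300*, *Crebbp*, *Hdac1* and *Hdac2* were not called. A call needed an adjusted p under 0.05 in edgeR's quasi-likelihood test over 14647 genes and a fold of 1.5. By that rule 30.4% of all tested genes were higher and 27.6% were lower in RS, so that 3 of 10 in each direction is near the share of all genes. The median log2 fold change was -0.02 over the 10 genes and 0.01 over all tested genes. The summed level of the 5 acetyltransferases was 106 and 117 RPKM in PS and 73.9 and 68.2 RPKM in RS, and that of the 5 deacetylases was 136 and 131 RPKM in PS and 117 and 124 RPKM in RS. The lower acetyltransferase sum in RS was mostly *Kat5*, whose level alone was 69.1 and 82.0 RPKM in PS. A non-coding row of *Kat5* held 51.6 and 65.3 RPKM in PS and 23.8 and 21.9 RPKM in RS. That share comes from an estimated split between rows, so the sums are not levels of coding RNA alone.

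**Figure D1:**
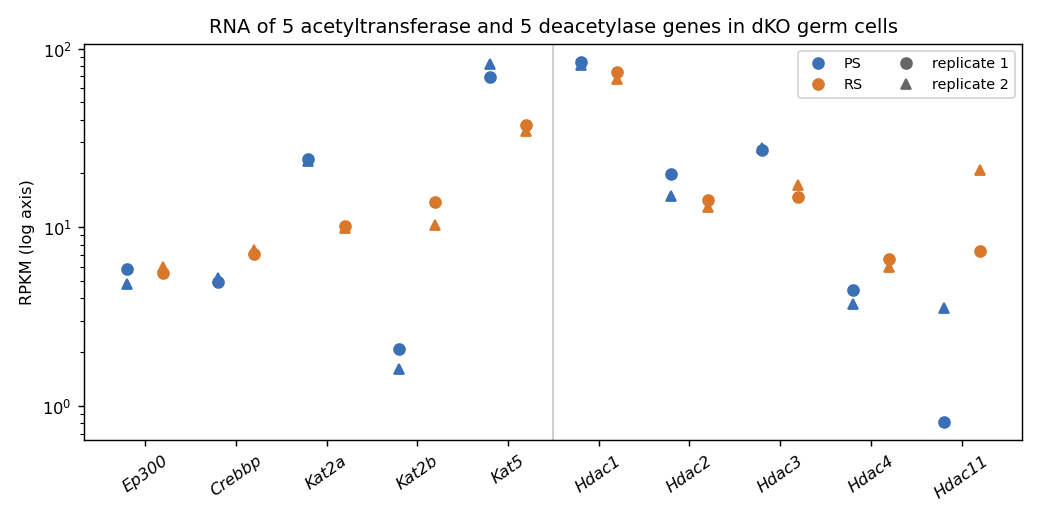
RPKM (log axis) of each gene in every dKO RNA sample, blue for PS and orange for RS, circles for replicate 1 and triangles for replicate 2. *Kat2b* and *Hdac11* are higher in both RS samples than in both PS samples, *Kat2a*, *Kat5* and *Hdac3* are lower, and the groups of *Ep300* overlap.

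*Ep300* and *Crebbp* encode the paralogous coactivators p300 and CBP. *Ep300* was at 5.86 and 4.79 RPKM in PS and at 5.51 and 6.00 RPKM in RS. The PS and RS samples overlapped, and the log2 fold change was 0.15 ± 0.15 (SE; edgeR adjusted p = 0.39). *Crebbp* was at 4.97 and 5.19 RPKM in PS and at 7.09 and 7.50 RPKM in RS. Both RS samples were above both PS samples, with a log2 fold change of 0.56 ± 0.14 and an edgeR adjusted p of 0.0084, but at 1.48-fold the difference was just short of the fold asked for. It passed when PS replicate 2, RS replicate 1 or RS replicate 2 was left out, with log2 fold changes of 0.64, 0.69 and 0.63.

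The wild-type promoters of both coactivator genes carried strong H3K27ac in every sample. H3K27ac is given as the fold enrichment of the highest summit of an interval over the sample's own background, after 1 is added to both. At *Ep300* it was 34.6 and 36.2 in PS and 41.5 and 36.6 in RS, at the start site on chromosome 15 at 81586214 (mm10, plus strand). Over all tested promoters the median fold enrichment was 17.3 and 18.6 in PS and 15.5 and 11.6 in RS, a shift of -0.39 on the log2 scale from PS to RS, so differences are given after each sample was centred on its median. Relative to that shift *Ep300* was 0.53 ± 0.13 higher in RS on the log2 scale (limma adjusted p = 0.00086), which is 1.45-fold and not called. Without centring the *Ep300* difference was 0.14 (limma adjusted p = 0.585). With centring it was 0.57 without PS replicate 1 and 0.53 without PS replicate 2. It was 0.63 without RS replicate 1 and 0.46 without RS replicate 2, and only the 0.63 was above the fold asked for. *Crebbp*, at 4213404 on chromosome 16 (minus strand), had fold enrichments of 21.0 and 19.7 in PS and 21.6 and 14.5 in RS. Its groups overlapped, and the centred log2 difference was 0.20 ± 0.14 (limma adjusted p = 0.26). Without centring its difference was -0.19.

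Of 9 genes with a promoter interval in every wild-type sample, *Hdac11* and *Kat2b* were called higher in RS and *Kat2a* lower. The background shares were 15.4% of 11394 promoters called higher and 12.6% called lower. Without centring, 926 promoters were called higher and 3727 lower, against 1760 and 1439 with it. The RNA and the promoter H3K27ac of *Kat2a*, *Kat2b* and *Hdac11* were called in the same direction, but 2 of these carry a limit given with their values. For *Kat2a* the acetylation lay nearer to another gene. For *Kat2b* the value came from 1 start site in PS and from another in RS.

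**Figure D2:**
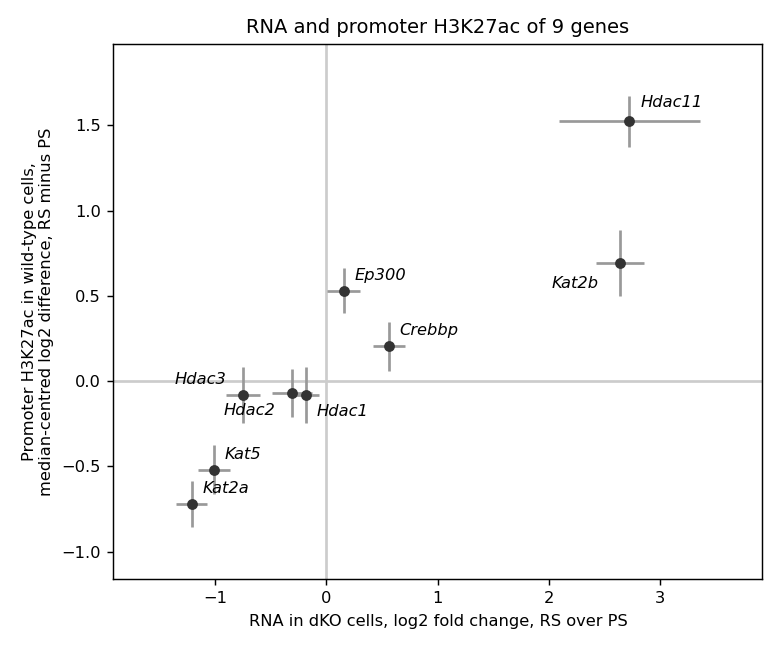
RNA log2 fold change of RS over PS in dKO cells (x axis) against the median-centred log2 difference in promoter H3K27ac in wild-type cells (y axis) for the 9 genes with a promoter interval in every sample, with bars of 1 SE. *Hdac11* and *Kat2b* lie at the upper right and *Kat2a* and *Kat5* at the lower left, and *Hdac1*, *Hdac2* and *Hdac3* lie near 0 on the H3K27ac axis.

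*Kat2a* and *Kat2b* encode GCN5 and PCAF, alternative catalytic subunits of the SAGA and ATAC complexes that acetylate mainly lysine 9 of histone H3. Their RNA moved in opposite directions. *Kat2a* was at 24.0 and 23.5 RPKM in PS and at 10.1 and 9.86 RPKM in RS. It was lower in both RS samples, and fell by 1.21 ± 0.14 on the log2 scale (edgeR adjusted p = 0.00011). *Kat2b* was at 2.09 and 1.60 RPKM in PS, the lowest mean of the 10 genes in PS, though overlapping the range of *Hdac11*, and at 13.8 and 10.2 RPKM in RS. It was 6.23-fold higher in RS, a log2 fold change of 2.64 ± 0.21 (edgeR adjusted p = 1.62e-05). The ratio of *Kat2a* to *Kat2b* RPKM was 11.5 and 14.7 in PS and 0.735 and 0.964 in RS, so that the more abundant paralog differed between the stages.

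*Kat2b* has 2 annotated start sites in the tables, 17155 bp apart on chromosome 17, and both measures are given for each. The bases before each start are shown for that reason. The sequences are RefSeq promoter windows of GRCm38.p6, the assembly of mm10, plus strand, cut at annotated exons, and capitals would mark a searched motif, of which the printed stretches held none. The whole window before the upstream start held 1 TGACG and 1 CCAAT in bases not printed.
Kat2b upstream start, chr17:53566916-53566970: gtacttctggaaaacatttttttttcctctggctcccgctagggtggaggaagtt
Kat2b internal start, chr17:53583876-53584125: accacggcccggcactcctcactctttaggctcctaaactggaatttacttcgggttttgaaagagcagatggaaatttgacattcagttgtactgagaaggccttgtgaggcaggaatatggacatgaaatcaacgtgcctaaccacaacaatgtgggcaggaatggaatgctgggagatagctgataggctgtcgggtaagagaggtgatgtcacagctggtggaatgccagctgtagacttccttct
The 250 bases before the upstream start hold 6 CpG dinucleotides and those before the internal start hold 5, beside a median of 6 over all 32851 promoters of the table. The other windows of these genes, none for *Hdac1* and *Hdac3*, held 11 to 44.

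The transcript that begins at the internal start, NM_001190846 at 53584126, had 51 and 0 counts in PS and 790 and 457 counts in RS. The transcript that begins upstream, NM_020005 at 53566971, had 51 and 82 counts in PS and 0 and 41 in RS. Most *Kat2b* counts in RS, 100% and 91.8%, were thus assigned to the internal start, against 50% and 0% in PS. With each row tested as its own feature, an alternative chosen after the values were seen, the internal row was higher in RS by 4.46 ± 1.14 on the log2 scale (edgeR adjusted p = 0.0229) and the upstream row was not called, at -1.76 ± 1.34 (edgeR adjusted p = 0.307). The rows share most exons, and the authors split their reads by an expectation-maximization algorithm, so counts of 0 here are estimates.

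H3K27ac at the 2 starts came from other samples and did not rest on that split. At the internal start fold enrichment was 5.35 and 6.58 in PS and 12.2 and 12.2 in RS. Both RS samples were higher, with summits of 29 and 20 fragments against 12 and 11 in PS. Within 2 kb of the upstream start fold enrichment was 7.82 and 12.1 in PS and 6.10 and 5.81 in RS. The summits had 18 and 21 fragments in PS and 14 and 9 in RS. The interval of RS replicate 2 began 1018 bp after this start. Here both RS samples were the lower ones. With each start as its own feature, also chosen after seeing the data, the internal start was higher in RS by 1.32 ± 0.20 on the centred log2 scale (limma adjusted p = 5.56e-07), and the upstream start was at -0.23 ± 0.22 (limma adjusted p = 0.408). The difference between the 2 starts was not tested. The highest interval of the gene lay at the upstream start in both PS samples and at the internal start in both RS samples. A value for the whole gene thus sets different starts against each other. Taken as 1 gene with its highest interval, *Kat2b* was higher in RS by 0.69 ± 0.19 (limma adjusted p = 0.0029), a call that was lost without PS replicate 1 (0.48, adjusted p = 0.111), without RS replicate 2 (0.54, adjusted p = 0.066), without centring (0.30, adjusted p = 0.395) and with promoters that had an interval in only 2 or 3 samples added (adjusted p = 0.0594). A processed pseudogene, *Kat2b-ps*, is 95.1% identical to *Kat2b* over 2479 of 4653 transcript bases, and reads that fit both equally would have been left out by the unique alignment.

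**Figure D3:**
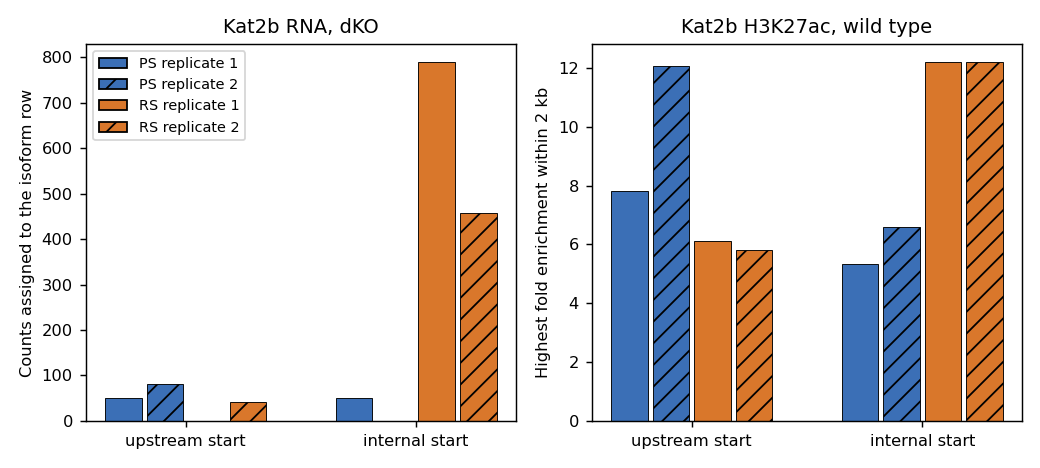
Counts assigned to the 2 *Kat2b* transcript rows in dKO cells (left) and the highest H3K27ac fold enrichment within 2 kb of each start in wild-type cells (right), 1 bar per sample, blue for PS and orange for RS, hatched for replicate 2. RS exceeds PS at the internal start in both panels, with 790 and 457 counts and a fold enrichment of 12.2 in both samples.

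At *Kat2a* the acetylation that differed lay towards the neighbouring gene. The start of *Kat2a*, at 100712467 on chromosome 11 (minus strand), is followed 1383 bp upstream by the start of *Hspb9*, a testis small heat shock gene on the opposite strand. Its bases are shown because the promoter is shared.
Kat2a, chr11:100712468-100712717, minus strand: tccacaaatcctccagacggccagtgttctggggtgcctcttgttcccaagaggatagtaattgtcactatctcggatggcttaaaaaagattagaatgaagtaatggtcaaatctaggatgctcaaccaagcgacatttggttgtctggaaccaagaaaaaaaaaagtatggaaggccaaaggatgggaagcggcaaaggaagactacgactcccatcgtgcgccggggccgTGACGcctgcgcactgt
The capitals mark the shorter cyclic AMP response element, TGACG, which 17.8% of all promoters of the table hold on either strand in the same window. Fold enrichment within 2 kb of the *Kat2a* start was 32.9 and 33.4 in PS and 17.1 and 12.8 in RS. It was lower in both RS samples, and fell by 0.72 ± 0.14 on the centred log2 scale (limma adjusted p = 2.94e-05). The strongest summits lay 1682 and 1701 bp upstream of *Kat2a* in PS and 2289 and 2677 bp upstream in RS, beyond the *Hspb9* start. With only summits within 1 kb of the *Kat2a* start, an alternative added after the positions were seen, fold enrichment was 11.9 and 11.0 in PS and 12.2 and 6.39 in RS, and the centred difference was 0.08 (limma adjusted p = 0.765). The lower promoter H3K27ac called for *Kat2a* was thus a value of the *Hspb9* side of the shared region, and *Hspb9* RNA was 541 and 549 RPKM in PS and 586 and 541 RPKM in RS.

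*Kat5* encodes TIP60, the catalytic subunit of the NuA4-type complex, which acetylates histones H4 and H2A and acts in DNA repair. By the mean of the 2 samples it was the second most abundant of these genes in both stages, overlapping *Hdac1* in PS, at 69.1 and 82.0 RPKM in PS and 37.4 and 34.6 RPKM in RS. Both RS samples were lower, and the level fell by 1.01 ± 0.15 on the log2 scale (edgeR adjusted p = 0.00041). The non-coding row NR_037603 had 1110 and 1368 counts in PS and 627 and 486 in RS. The row of the coding transcripts had 392 and 361 in PS and 381 and 300 in RS. At 17.5 and 16.7 RPKM in PS and 13.6 and 12.7 RPKM in RS, the coding row was below *Hdac3* in both stages. The place of *Kat5* among these genes thus rested on the non-coding row. With each row tested as its own feature, an alternative chosen after the values were seen, the non-coding row fell by 1.31 ± 0.17 (edgeR adjusted p = 0.00266). The coding row was at -0.30 ± 0.15 (edgeR adjusted p = 0.141). The rows start 387 bp apart and end at the same base, and their counts come from the expectation-maximization split. Most of the fall was thus assigned to the non-coding row, but which transcripts fell cannot be told from these estimates. The library kept no strand, and *Kat5* shares 4006 bp with *Rnaseh2c* on the opposite strand, whose listed RPKM was 35.9 and 38.2 in PS and 25.9 and 17.5 in RS. Reads from the shared bases cannot be told apart. Promoter H3K27ac at *Kat5*, on chromosome 19 at 5609707 and 5610094 (minus strand), was 29.6 and 29.6 in PS and 19.9 and 11.6 in RS, a centred log2 difference of -0.52 ± 0.14 (limma adjusted p = 0.0028). At 1.43-fold this was not called, and it was called without centring, at -0.91, and without RS replicate 1, at -0.69. Without RS replicate 2 it was -0.31 (limma adjusted p = 0.125) and without PS replicate 1 it was -0.45 (limma adjusted p = 0.10).

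*Hdac1*, *Hdac2* and *Hdac3* encode class I deacetylases. HDAC1 and HDAC2 work together in the SIN3, NuRD and CoREST complexes, and HDAC3 works in the SMRT-NCoR complexes. *Hdac1* had the highest level of the 10 genes in RS, at 73.7 and 67.2 RPKM, and was at 84.1 and 80.8 RPKM in PS, where its range overlapped that of *Kat5*. Its log2 fold change was -0.18 ± 0.12 (edgeR adjusted p = 0.21). The processed pseudogene *Gm10093* is 99.4% identical to *Hdac1* over 1444 of 2038 bases, and reads that fit both equally would have been left out of its count. *Hdac2* was at 19.8 and 15.0 RPKM in PS and at 14.2 and 13.0 RPKM in RS. Its groups did not overlap, but its log2 fold change of -0.31 ± 0.18 did not pass (edgeR adjusted p = 0.16). The ratio of *Hdac1* to *Hdac2* RPKM stayed between 4.25 and 5.37 in the 4 samples.

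*Hdac3* was at 27.2 and 27.8 RPKM in PS and at 14.8 and 17.1 RPKM in RS. It was lower in both RS samples and fell by 0.75 ± 0.15 on the log2 scale (edgeR adjusted p = 0.0027). Without RS replicate 1 the log2 fold change was -0.55 and was no longer called (adjusted p = 0.0696). The promoters of these 3 genes were not called. Fold enrichment at *Hdac1* (129542646 on chromosome 4, minus strand) was 17.3 and 16.4 in PS and 15.1 and 9.29 in RS. At *Hdac2* (36974544 on chromosome 10, plus strand) it was 30.0 and 30.7 in PS and 22.0 and 21.5 in RS. At *Hdac3* it was 14.8 and 18.6 in PS and 14.6 and 9.29 in RS, in an interval shared with the start of *Rell2*, 571 bp upstream. The centred log2 differences were -0.08 ± 0.16, -0.07 ± 0.14 and -0.08 ± 0.16, with limma adjusted p of 0.72, 0.71 and 0.73. *Hdac3* thus had lower RNA in RS with no detected difference in centred promoter H3K27ac.

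*Hdac4* encodes a class IIa deacetylase that shuttles between nucleus and cytoplasm and binds MEF2 factors. It was at 4.43 and 3.74 RPKM in PS and at 6.61 and 5.96 RPKM in RS. Both RS samples were higher, with a log2 fold change of 0.67 ± 0.18 (edgeR adjusted p = 0.011). The call was lost without RS replicate 1 (0.68, adjusted p = 0.0583) and with limma on log2(RPKM + 1), where the difference of 0.52 was below the fold asked for. No interval lay within 2 kb of the *Hdac4* start of the tables, 92148393 on chromosome 1 (minus strand), in any of the 4 samples. RefSeq and GENCODE M21 on this assembly give another *Hdac4* start 31948 bp further upstream, at 92180341, whose preceding bases are shown because an interval covered them in every sample.
Hdac4 upstream start, chr1:92180342-92180591, minus strand: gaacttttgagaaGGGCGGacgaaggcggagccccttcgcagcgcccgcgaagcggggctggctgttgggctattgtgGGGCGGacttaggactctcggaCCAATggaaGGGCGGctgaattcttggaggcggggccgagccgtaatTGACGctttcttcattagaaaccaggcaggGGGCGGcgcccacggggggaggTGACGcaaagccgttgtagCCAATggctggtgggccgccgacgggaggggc
The capitals mark the GC box GGGCGG with 4 matches, CCAAT with 2 and TGACG with 2, which 32.7%, 33.8% and 17.8% of all promoters hold on either strand in the same window. The interval over this start was deposited under *Ndufa10* as intergenic, and so was not among those chosen by annotation. Its fold enrichment was 26.3 and 26.3 in PS and 19.9 and 16.8 in RS, over 2287 to 2345 bp. Centred on each sample's median over all promoters, it was at 0.58 and 0.48 in PS and 0.35 and 0.50 in RS on the log2 scale. The groups overlapped after centring, and no test was made of this interval.

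Some other *Hdac4* intervals had their highest values in RS replicate 1. An intergenic region beyond the 3′ end of the gene, chr1:91914666-91917536, had a fold enrichment of 9.76 in RS replicate 1. In RS replicate 2 the same bases held 5 shorter intervals of up to 6.97, and in PS 1 interval each of 3.70 and 4.93. An intron interval, chr1:92006280-92007184, was at 10.6 in RS replicate 1 and covered the start of 2 non-coding GENCODE transcripts of *Hdac4*. It was at 5.22 in RS replicate 2, at 4.93 in PS replicate 2 and was not listed in PS replicate 1, and the values 5.22 and 4.93 each came from 8 fragments. Another intron interval, chr1:92100255-92100400, was listed in PS replicate 2 alone, at 4.93. These values rest on summits of 8 to 25 fragments.

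*Hdac11* encodes the only class IV deacetylase, an enzyme best known for removing long fatty acyl groups. It was at 0.809 and 3.54 RPKM in PS and at 7.37 and 20.8 RPKM in RS, from 23, 98, 257 and 612 counts. Both RS samples were above both PS samples, but within each stage the replicates differed by more than for any other of these genes. The log2 fold change was 2.72 ± 0.63 (edgeR adjusted p = 0.0052). It lay between 1.90 and 4.20 when each sample was left out in turn, and was called each time. At 6.60-fold it was the largest of the 10, but it did not differ from the 6.23-fold of *Kat2b* beyond its SE.

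The *Hdac11* promoter, on chromosome 6 at 91156815 (plus strand), carried more H3K27ac in RS. The first bases of the window, before the outermost annotated start, are shown because this promoter had the largest difference.
Hdac11, chr6:91156565-91156664, plus strand: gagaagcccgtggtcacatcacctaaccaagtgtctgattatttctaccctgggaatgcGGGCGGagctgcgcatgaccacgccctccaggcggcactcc
The capitals mark a GC box, which 32.7% of all promoters hold. The whole window also held 1 TGACG and 1 CCAAT in bases not printed. Fold enrichment was 11.9 and 11.0 in PS and 28.9 and 23.8 in RS, from summits of 28, 19, 70 and 40 fragments. Both RS samples were above both PS samples, and the centred log2 difference was 1.53 ± 0.15 (limma adjusted p = 7.08e-11). It was called under each alternative tried, between 1.13 without centring and 1.67 with pileup over background without adding 1. The interval was also wider in RS, 4337 and 2921 bp against 1744 and 1711 bp in PS, and reached from 1.4 kb before the start to 2.9 kb after it in RS replicate 1.

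**Figure D4:**
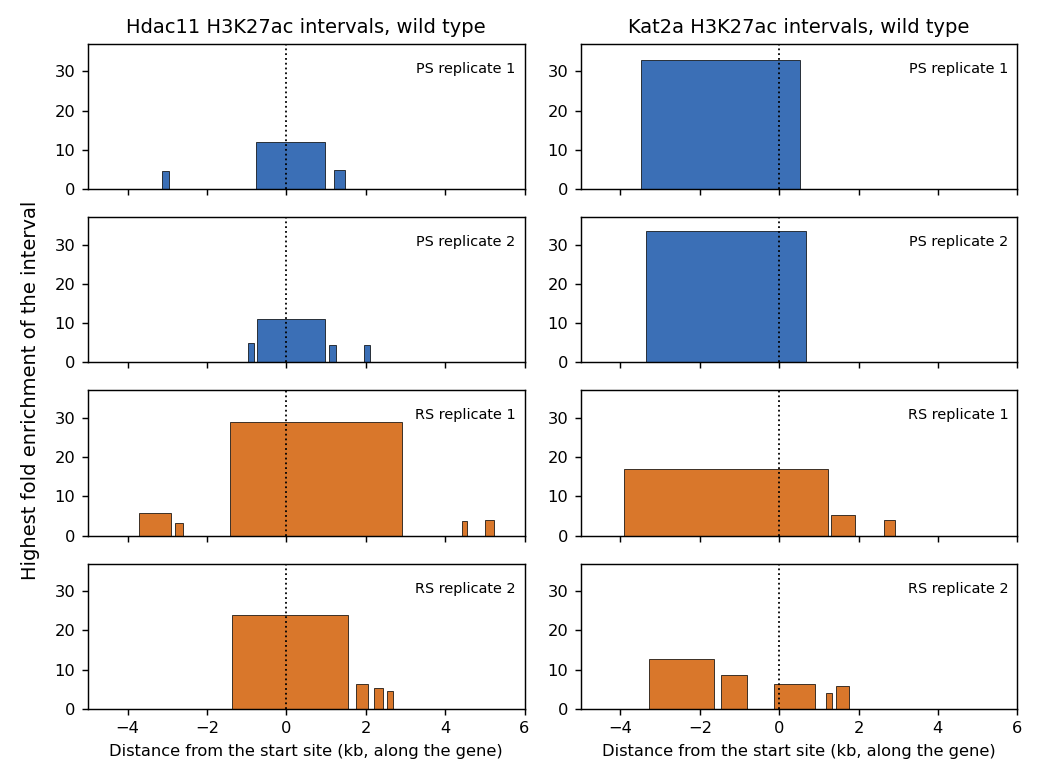
H3K27ac intervals of *Hdac11* (left) and *Kat2a* (right) in the 4 wild-type samples, drawn as boxes from first to last base by distance from the start site in kb along the gene, with the height showing the highest fold enrichment of the interval. The *Hdac11* box over the start is taller and wider in RS, and the *Kat2a* boxes extend upstream, where *Hspb9* starts 1383 bp away.

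Of 15 PS intervals of these genes found in both replicates, 12 were kept in both RS replicates, 10 of them at promoters, 3 were lost from both, and of 21 RS intervals found in both replicates 5 were absent from both PS replicates. Over all intervals, those far from any promoter included, 64.3% were kept, 21.8% lost and 29.4% absent from PS. The intervals of these genes were chosen partly by nearness to a start site, so these shares are of a different mix of regions. The lost ones were 1 of *Ep300*, 86.7 kb before its start, at 4.94 and 6.03 in PS, and 2 in introns of *Kat2b*, 1 of which began only 1820 bp after the upstream start. In PS replicate 2 the bases of that *Kat2b* interval lay inside the wider interval over the upstream start, other parts of which RS intervals overlapped. Its loss thus depended on where the interval of PS replicate 1 was split. A second distal *Ep300* region 62.5 kb before its start was kept, at 11.5 and 11.0 in PS and 7.32 and 5.81 in RS. The 5 in RS alone had a fold enrichment of 3.48 to 6.39. They were at *Hdac2*, 16.9 kb after its start, in an exon of *Kat2a*, beyond the end of *Hdac4*, and 2 in *Crebbp*. Intervals near the detection limit depend on depth, which the lists give only as a background of 0.723 to 1.46 fragments, and no test was made of them.

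In RPKM the order of the 10 genes differed between the stages. In PS it ran *Hdac1*, *Kat5*, *Hdac3*, *Kat2a*, *Hdac2*, *Ep300*, *Crebbp*, *Hdac4*, *Hdac11* and *Kat2b*, by the mean of the 2 samples. The neighbours *Hdac1* and *Kat5*, *Ep300* and *Crebbp*, and *Hdac11* and *Kat2b* had overlapping ranges there. In RS it ran *Hdac1*, *Kat5*, *Hdac3*, *Hdac11*, *Hdac2*, *Kat2b*, *Kat2a*, *Crebbp*, *Hdac4* and *Ep300*. Here *Hdac3* and *Hdac11*, *Hdac11* and *Hdac2*, *Hdac2* and *Kat2b*, and *Hdac4* and *Ep300* overlapped. By these means *Hdac11* went from place 9 to place 4 and *Kat2b* from place 10 to place 6, but the RS samples of *Hdac11*, at 7.37 and 20.8 RPKM, ran from within the range of *Crebbp* to above that of *Hdac3*. By the same means *Hdac1*, *Kat5* and *Hdac3* had places 1, 2 and 3 in both stages, where the place of *Kat5* rested on its non-coding row.

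The other enzymes of both kinds were read from lists fixed by name. Of 17 other acetyltransferases tested, 5 were higher and 8 lower in RS, beside 30.4% and 27.6% of all tested genes, with a median log2 fold change of -0.29. *Cdyl* encodes a chromodomain protein linked to histone acetylation in spermatids. The authors describe this protein as a main regulator of crotonylation, a different histone modification, on the sex chromosomes there. RNA of *Cdyl* rose from 8.87 and 11.9 RPKM to 104 and 77.1 RPKM (8.97-fold, edgeR adjusted p = 7.32e-06). Its promoter H3K27ac was higher in RS as well, by 1.48 on the centred log2 scale (limma adjusted p = 3.61e-10). *Naa60*, an acetyltransferase of protein N-termini, rose 3.85-fold. *Naa40*, which acetylates the N-termini of histones H4 and H2A, fell from 54.5 and 63.7 RPKM to 7.33 and 9.98 RPKM (6.67-fold, edgeR adjusted p = 6.96e-06), and *Gtf3c4*, a subunit of TFIIIC, fell 3.48-fold.

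Of 12 other deacetylases tested, 4 were higher and 5 lower in RS, beside 30.4% and 27.6% of all tested genes, with a median log2 fold change of -0.54. *Hdac9*, a class IIa paralog of *Hdac4*, was higher in RS by 2.65 on the log2 scale (edgeR adjusted p = 0.0011), but from only 4 and 7 counts in PS and 47 and 32 in RS. *Hdac5*, another class IIa paralog, was higher by 0.74 (edgeR adjusted p = 0.0025), and *Hdac7*, a further one, was at -0.39 and was not called (edgeR adjusted p = 0.466). The sirtuins are deacetylases that need NAD. *Sirt4*, which is mitochondrial, rose 2.22-fold, whereas the mitochondrial *Sirt5* fell 2.88-fold and *Sirt2*, a tubulin deacetylase, fell from 82.1 and 93.3 RPKM to 30.4 and 36.2 RPKM (edgeR adjusted p = 8.28e-05).

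**Figure D5:**
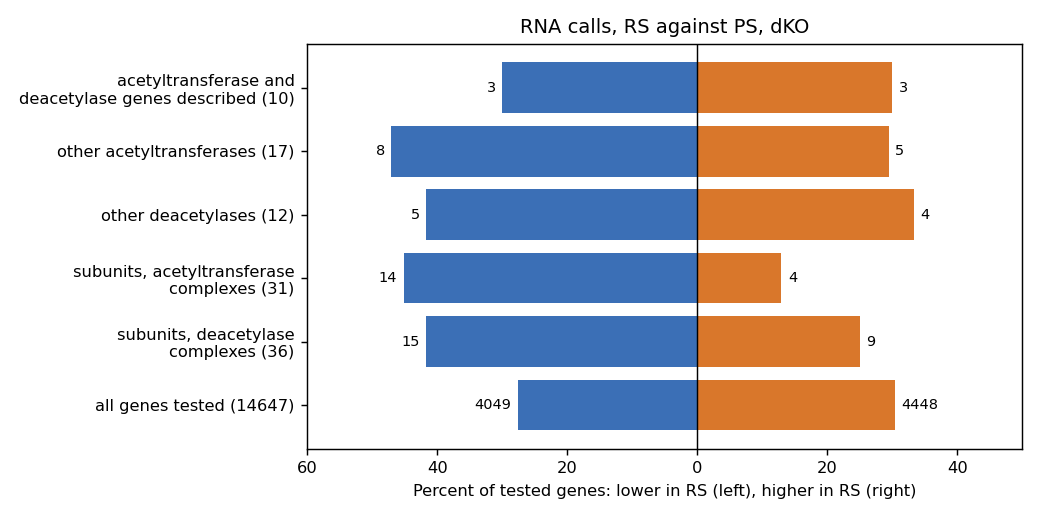
Percent of tested genes called lower (blue, left) or higher (orange, right) in RS than PS in dKO RNA, for the 10 genes, the other acetyltransferases and deacetylases, the subunits of their complexes and all 14647 tested genes. Numbers beside the bars are gene counts and those in brackets are the genes tested. The 10 genes have 3 in each direction.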

How the data were processed

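Peak lists of H3K27ac ChIP-seq from wild-type cells and gene tables of RNA-seq from Rnf8- and Scml2-dKO cells were used, for PS and for RS, with 2 replicates each, grouped by the sample labels. The methods describe obtaining dKO PS and RS from 1 male mouse, but no source used here says which samples share a mouse. The p-values rest on the spread between these samples, estimated for each gene with help from all tested genes. They are therefore not a measure of the 4 values of a gene alone. Reads were aligned by the authors to mm10, with Bowtie 1.1.1 and STAR 2.4.2a in the submitters' processing notes, and peaks were called per sample with MACS2 2.1.0.20140616.

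The authors deposited estimated counts per RefSeq row, from unique alignments split by expectation-maximization and not normalized, and RPKM, normalized for length and library size. The authors' peak lists hold the pileup signal of each summit, its fold enrichment over background after adding 1, and its -log10 p and q. The estimated counts were whole numbers. Rows were summed to genes.

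RNA was tested with edgeR 4.0.16 (R 4.3.3; TMM, quasi-likelihood, at least 10 counts in at least 2 samples, Benjamini-Hochberg over all genes tested). Promoter H3K27ac was log2(1 + the highest fold enrichment of an interval within 2 kb of any start), for genes with an interval in all 4 samples, centred on each sample's median and tested with limma 3.58.1. Both were tested on simulated data first. Calls needed an adjusted p under 0.05 and 1.5-fold, as values with an SE on the log2 scale. Intervals sharing at least 1 bp counted as the same. Similar transcripts were found with minimap2 2.31-r1302 in GENCODE M21. Motifs searched in the 250 bases before each start, on both strands, were the cyclic AMP response element TGACGTCA and its contained shorter form TGACG, the MYB motif TAACNG, the CCAAT box, the GC box GGGCGG and the E-box CACGTG. The promoter windows had 10 entries for 8 of the 10 genes.

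Alternatives were DESeq2 1.42.0, limma on log2 RPKM, other normalizations, filters and windows, and leaving out each replicate. Each isoform row or start as its own feature, and summits within 2 kb or 1 kb, were added after seeing the data. The members and lists were chosen with earlier results of these data known. Named genes were the 10 members, the 2 called genes with the largest fold in each direction of each other list, and paralogs of a member. For *Rnf8* and *Scml2* only counts are given.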

Additional observations from a re-analysis of the deposited data

How the results depend on the processing

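Of 144 alternative values of the 10 RNA log2 fold changes, 134 kept both direction and side of the threshold, as did 113 of 130 for the 9 promoters. RNA calls of the 10 genes stayed within 2 to 4 higher and 2 to 3 lower under the alternatives run. For promoter H3K27ac, 1 gene in place of 2 was higher without centring and with an interval in at least 2 samples. The number lower, 1, became 2 without centring and by adjusted p alone and 0 with summits within 1 kb. Leaving out a replicate gave 1 to 3 higher and 1 to 2 lower. The difference was reversed for *Crebbp* without centring (-0.19), for *Kat2a* with summits within 1 kb (0.080), for the upstream *Kat2b* row (-1.76) and start (-0.23), and in some of the fits that left out a replicate, which ranged from -0.21 to 0.086 for *Hdac1*, from -0.21 to 0.11 for *Hdac2* and from -0.19 to 0.068 for *Hdac3*. The *Kat2a* value moved because summits near *Hspb9* were dropped, and for the others the cause was not tested. Over all promoters 2395 were lower by adjusted p alone against 1439. With 50% reciprocal overlap 6 of 12 intervals were kept and 1 lost, beside 33.0% and 42.5% of all intervals. With -log10 q of at least 5, 11 of 12 were kept and 1 lost, beside 64.0% and 23.4% of all intervals. Deviations of same-numbered replicates correlated at 0.225 for RNA and 0.0069 for H3K27ac, and although dKO PS and RS samples may share an animal, no source used here ties that to these numbers. A replicate block gave 3 higher and 3 lower genes in RNA, 4589 and 4134 over all genes, and 2 higher and 1 lower for H3K27ac, and changed no call of the 10 genes; with it *Hdac11* RNA was at 2.81 (adjusted p = 1.1e-06). Distal intervals rest on summits of few fragments.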

Other observations

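Among the subunits of the enzyme complexes more were called lower than higher in RS. Of 31 tested subunits of the TIP60-NuA4, SAGA and ATAC acetyltransferase complexes, 14 were lower and 4 higher in RS in dKO RNA, beside 27.6% and 30.4% of all tested genes, with a median log2 fold change of -0.40 (0.01 over all genes). *Trrap*, the scaffold shared by the complexes of TIP60 and GCN5, was at 11.2 and 14.7 RPKM in PS and 3.12 and 3.80 RPKM in RS (fell by 1.87 on the log2 scale, edgeR adjusted p = 4.47e-05). *Mrgbp*, a TIP60 complex subunit, fell by 2.00, whereas *Ing3*, another one, rose 3.16-fold and *Taf5l*, of SAGA, rose 2.45-fold.

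Of 36 tested subunits of the SIN3, NuRD, CoREST, SMRT-NCoR and MiDAC deacetylase complexes, 15 were lower and 9 higher, beside the same 27.6% and 30.4% of all tested genes, with a median of -0.39. *Sap30*, a SIN3 subunit, had the largest change of the list, from 29.9 and 34.2 RPKM in PS to 1.51 and 2.80 RPKM in RS (14.6-fold lower, edgeR adjusted p = 9.19e-06), and its promoter H3K27ac in wild-type cells was lower by -1.34 on the centred log2 scale (limma adjusted p = 7.12e-10). *Phf21a* of CoREST fell 3.96-fold, and the NuRD subunits *Mbd2* and *Gatad2b* rose 2.74-fold and 2.37-fold. Leydig markers were lower and macrophage markers higher in RS than in PS, and the part of these cells in the values of these lists was not tested.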
